A study of Homo sapiens with 2 samples.

Results

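The kidney development transcription factors examined here are PAX2, PAX8, SIX2, LHX1, WT1, SALL1, EYA1 and GATA3, chosen by name as regulators of the embryonic kidney and not by their values. Of these 8 genes, 7 were matched by symbol to an identifier of the tables, among 57736 genes listed in all. LHX1, a LIM-homeobox factor of the early nephric lineage, was not analysed here, because the identifier that the annotation pairs with it was matched to no row. Both libraries come from 1 cell line, HEK293T, which was derived from human embryonic kidney and expresses the large T antigen of SV40, and which the labels give as wild type and as kidney tissue. By the labels, the cells were held at 43 °C for 20 min and lysed after 6 h at 37 °C, and poly(A)+ RNA was read in 50-base reads, although the labels name genomic DNA as the molecule. The study's text gives a longer heating time than the labels. The labels give 1 group of 2 libraries, replicate 1 and replicate 2, lysed separately, and do not say whether they came from separate cultures. Untreated cells are not analysed here, so the values describe the genes after recovery from heat shock and no change with heat was measured.

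The kidney forms when the ureteric bud, an outgrowth of the nephric duct, and a cap of nephron progenitor cells around its tips induce each other. PAX2 and PAX8 specify the nephric lineage. SIX2 keeps the cap cells undifferentiated, while EYA1, SALL1 and WT1 are needed for those cells to form and survive, and GATA3 acts in the nephric duct and the ureteric bud. WT1 stays on in the podocytes of the mature glomerulus, and PAX8 remains in much of the adult tubule.

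The level of a gene is given as TPM, a read count divided by transcript length and scaled so that both libraries have an equal sum. The expected count is the number of reads that the authors' quantifier assigned to the gene, 22529828 in all in replicate 1 and 26890199 in replicate 2. Its posterior SD is the uncertainty of that assignment in reads. A gene was called detected where both libraries reached a TPM of 1. CPM is the count scaled only to equal library totals, and the 3 counts that a count of 0 still allows come to a CPM of 0.133 for replicate 1 and 0.112 for replicate 2. These limits, and the intervals below, cover counting error only. In a culture read as a whole, fewer cells with a transcript and less RNA per cell cannot be told apart.

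Of the 7 kidney development factors, 6 were detected: GATA3, SALL1, SIX2, EYA1, WT1 and PAX2. PAX8 was not. Over all listed genes 26.3% were detected, and 63.8% of protein-coding genes. Together the 7 genes held 118.65 TPM in replicate 1 and 117.66 in replicate 2, or 118 ± 0.70 (SD, n = 2), which is 0.0118% of all TPM. The 6 detected genes spanned 5.86-fold in mean TPM. Among protein-coding genes their mean TPM lay between percentile 52.3 for PAX2 and percentile 83.0 for GATA3, and that of PAX8 at percentile 20.1.

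**Figure D1:**
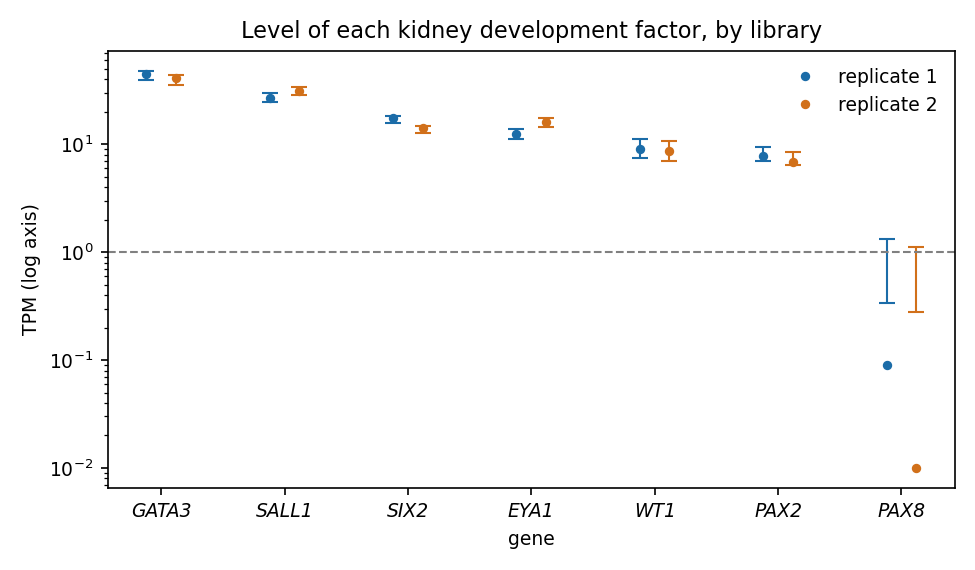
TPM of each gene on a log axis, with a point for each library and bars for the credibility bounds that the quantifier gave. The dashed line is a TPM of 1: GATA3, SALL1, SIX2, EYA1, WT1 and PAX2 lie above it in both libraries, and PAX8 lies below it at 0.09 and 0.01, under its own bounds.

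Among the matched factors, SIX2, EYA1, SALL1 and WT1, which act in nephron progenitors, were all detected. SIX2 (ENSG00000170577), a homeobox factor, lies on the minus strand of chromosome 2 at 45232321 to 45236591 of GRCh37. It stood at 17.56 TPM in replicate 1, from 690.82 expected counts, and at 14.18 TPM in replicate 2, from 635 expected counts. Its mean was 15.9 ± 2.39 TPM (SD, n = 2), with the higher value in replicate 1. The tables list 1 transcript for SIX2, so its length did not vary between the libraries.

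EYA1 (ENSG00000104313), a transcriptional coactivator and phosphatase that binds SIX2 and its relatives, lies on the minus strand of chromosome 8 at 72109668 to 72504260. It was at 12.44 TPM in replicate 1, from 513 expected counts, and at 15.94 TPM in replicate 2, from 733, with a mean of 14.2 ± 2.47 TPM (SD, n = 2). EYA1 was the higher of the partners in replicate 2 and SIX2 was the higher in replicate 1, so their order by level was not resolved.

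SALL1 (ENSG00000103449), a zinc finger repressor that recruits the NuRD complex, lies on the minus strand of chromosome 16 at 51169893 to 51186245. It had the largest counts of the 7 genes, 1721 and 2170 in replicates 1 and 2. Its TPM was 26.77 and 30.85, with a mean of 28.8 ± 2.89 (SD, n = 2). WT1 (ENSG00000184937), a zinc finger factor of progenitors and podocytes, lies on the minus strand of chromosome 11 at 32409321 to 32457110. WT1 was at 9.03 TPM in replicate 1, from 291.28 expected counts, and at 8.73 TPM in replicate 2, from 310. Its mean of 8.88 ± 0.21 TPM (SD, n = 2) had the smallest SD beside its mean of the detected genes, 2.39%, against 17.4% for EYA1. That spread lies below the counting error of WT1, 5.86% in replicate 1 and 5.68% in replicate 2, so it does not rank how well the genes repeat. The CPM of WT1 was 12.9 in replicate 1 and 11.5 in replicate 2.

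The paired box factors PAX2 and PAX8, which overlap in function in the nephric lineage, were at very different levels. PAX2 (ENSG00000075891) lies on the plus strand of chromosome 10 at 102495153 to 102589701. Its expected counts of 413 in replicate 1 and 457 in replicate 2 gave 7.83 and 6.86 TPM and a mean of 7.35 ± 0.69 (SD, n = 2). PAX8 (ENSG00000125618) lies on the minus strand of chromosome 2 at 113973574 to 114036498, and it had 1 expected count in each library. A count of 1 has an exact Poisson 95% interval of 0.0253 to 5.57 counts, or a CPM of at most 0.247 in replicate 1 and 0.207 in replicate 2. The mean CPM of PAX2 was 17.7. The weighted transcript length of PAX8 was 656 bases in replicate 1 and 3633 in replicate 2. Its 1 count therefore gave a TPM of 0.09 in replicate 1 and 0.01 in replicate 2. The posterior mean TPM of PAX8, which the quantifier raises above 0 for each of its 13 listed transcripts, was 0.81 and 0.67. Both values were still below the detection threshold of 1. The upper credibility bounds of PAX8, 1.33 TPM in replicate 1 and 1.11 in replicate 2, lay above that threshold.

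Whether 50-base reads can tell PAX2 from PAX8 was looked up in their sequences. No 50-base sequence of the PAX2 transcripts in the reference annotation occurs in any other gene. The most similar 50 bases within single coding exons of PAX2 and PAX8 differ at 3 positions and are shown with the differing bases in capitals. The stretch lies at chr10:102510569-102510618 on the plus strand in PAX2, in exon 3, and at chr2:114002034-114002083 on the minus strand in PAX8, in exon 4 of GRCh37.
PAX2: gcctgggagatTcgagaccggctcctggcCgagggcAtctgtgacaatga
PAX8: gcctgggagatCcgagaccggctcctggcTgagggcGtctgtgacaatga
The longest identical run between their coding sequences is 20 bases. PAX8 does share 18.1% of its 50-base sequences with PAX8-AS1, an antisense lncRNA gene that covers 1651 of its 7371 exonic bases. PAX8-AS1 had 1 expected count in replicate 1 and 0 in replicate 2, so few reads were assigned to either strand of the locus.

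GATA3 (ENSG00000107485), a zinc finger factor of the nephric duct and ureteric bud, lies on the plus strand of chromosome 10 at 8087341 to 8117161. It had the highest TPM of the 7 genes in both libraries, 44.93 and 41.09, with a mean of 43.0 ± 2.72 (SD, n = 2). These levels came from 833 and 952 expected counts, fewer than those of SALL1, over a shorter length.

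In the order of mean TPM, GATA3, SALL1, SIX2, EYA1, WT1, PAX2 and PAX8, 3 of the 6 pairs of neighbours were separated. A pair was called separated when both libraries of one gene lay above both libraries of the other and the credibility bounds were apart in each library. This held for GATA3 over SALL1, for SALL1 over SIX2 and for PAX2 over PAX8. SIX2 and EYA1 overlapped between the libraries. EYA1 lay above WT1 in both libraries, but the bounds were apart in only 1 of them, and WT1 lay above PAX2 with bounds that overlapped in both. With 2 values on each side the smallest p of an exact two-sided permutation test is 0.333, so no test of the order was made.

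The order of GATA3 and SALL1 depended on the length by which the counts were divided. The quantifier uses a length that is weighted by the shares of the isoforms. For GATA3 this was 1065 bases in replicate 1 and 1164 in replicate 2, or 34.5% and 37.8% of the longest of its 4 listed transcripts, 3083 bases. For SALL1 the weighted length was 3573 and 3437 bases, 69.6% and 66.9% of the longest transcript found for it, 5134 bases. GATA3 was thus divided by a length near the short end of its transcripts, and SALL1 by a length nearer to its long end. When the counts were divided by the longest transcript instead, an alternative chosen after seeing the data, SALL1 had a CPM per kilobase of 15.3, SIX2 of 12.3 and GATA3 of 11.7. GATA3 then ranked the third rather than the first, and PAX2, at 4.22, ranked above WT1, at 3.84.

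The weighted length also moved between the libraries for PAX2, from 2940 to 3256 bases, and by less for WT1, from 1818 to 1759, and EYA1, from 2310 to 2263. A TPM ratio between the libraries therefore holds a change of isoform shares as well as a change of counts. TPM and TMM-scaled counts also differ in scale: replicate 2 over replicate 1 gave SIX2, with its single length, a log2 ratio of -0.31 in TPM and of -0.43 in scaled counts.

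**Figure D2:**
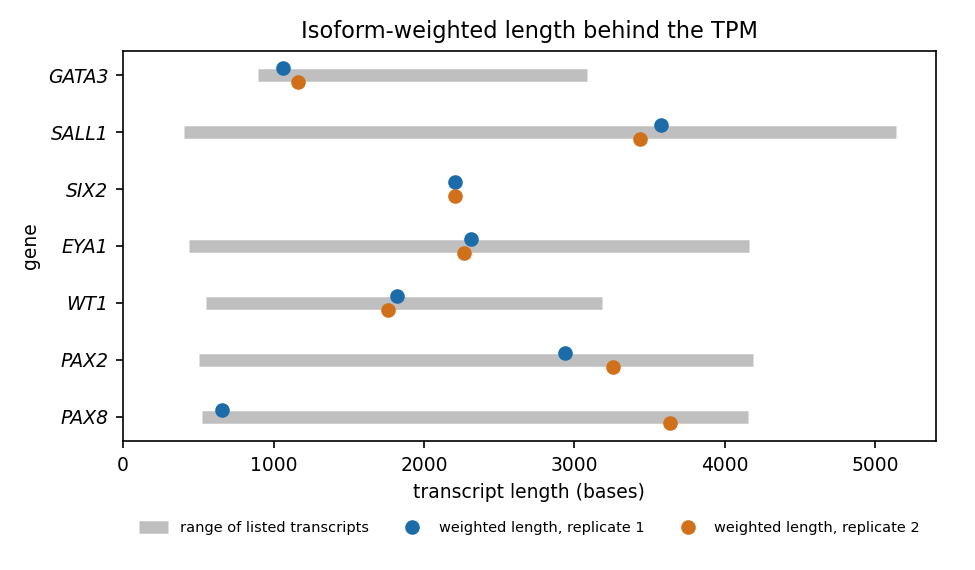
Transcript length in bases for each gene: the grey bar runs from the shortest to the longest transcript that the tables list and the reference annotation holds, and points are the isoform-weighted lengths of the libraries. GATA3 lies near the short end of its range in both libraries, SIX2 has a single transcript, and PAX8, with 1 read in each library, moves from 656 to 3633 bases.

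The assignment of reads was nearly certain for the 6 detected genes by the quantifier's own measure. Their posterior SD reached at most 0.82 reads, for SIX2 in replicate 1. Counting error was the larger term, from 2.15% for SALL1 in replicate 2 to 5.86% for WT1 in replicate 1. In the reference annotation, 0 of the 50-base sequences of SIX2, GATA3 and WT1 occur in another gene, 0.524% of those of SALL1 occur in the pseudogene SALL1P1, and 2.82% of those of EYA1 occur in other genes, mostly on the opposite strand in lncRNA genes that overlap it.

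Stretches in which SALL1 and GATA3 come closest to a relative are shown for the same reason. The closest stretch of SALL1 is in SALL3 and differs at 2 positions, at chr16:51173785-51173834 on the minus strand in SALL1 and chr18:76754209-76754258 on the plus strand in SALL3.
SALL1: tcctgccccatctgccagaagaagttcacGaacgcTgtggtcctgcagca
SALL3: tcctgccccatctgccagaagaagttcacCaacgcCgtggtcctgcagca
GATA6 and GATA2 each hold a stretch that differs from GATA3 at 4 positions, and that of GATA6, where the longest identical run is 29 bases, is shown, at chr10:8105997-8106046 and chr18:19756978-19757027, both on the plus strand.
GATA3: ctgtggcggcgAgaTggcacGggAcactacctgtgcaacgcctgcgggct
GATA6: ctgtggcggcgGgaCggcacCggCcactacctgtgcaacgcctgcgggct
Each of these stretches lies inside 1 coding exon, and capitals again mark the differing bases.

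Of the genes that overlap on the other strand, those with a row in the tables held few counts. Whether the counting used strand was not given in the sources used here. Reads of a gene and of an overlapping antisense gene cannot be told apart where their exons meet unless it did. WT1-AS overlaps the exons of WT1 by 47 bases and was at 26.72 and 32.00 expected counts, or 1.15 and 1.12 TPM. GATA3-AS1, which lies within the GATA3 locus with no exonic overlap, had 8.37 and 4.04 expected counts. These counts are small beside the 291.28 to 952 of their partners.

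The kidney development factors were then set beside the other members of their families, many of which act in other embryonic tissues. Of 30 such paralogs, 23 were detected, or 76.7%, against 63.8% of all protein-coding genes, the share for the lists below as well. The 30 paralogs held 413 TPM in replicate 1 and 448 in replicate 2, and PAX6 and SALL2 were among the highest. In the PAX, EYA and SALL families the kidney gene was not the member with the highest level.

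Among 9 PAX genes, 6 were detected. PAX6, an eye and neural factor, was at 73.00 and 79.26 TPM and held 71.1% and 69.1% of the PAX family's TPM, while PAX2 held 7.62% and 5.98%. These shares depend on length: the weighted length of PAX6 was 14.7% and 15.5% of its longest transcript, against 70.2% and 77.7% for PAX2. Per kilobase of the longest transcript, the mean CPM was 8.67 for PAX6 and 4.22 for PAX2. PAX3, at 12.87 and 16.80 TPM, lay above PAX2 in both libraries, and PAX9, at 6.01 and 9.01, overlapped with it. PAX5, the other relative closest to PAX2 and PAX8, was at 0.09 and 0.04 TPM, so PAX2 alone of the PAX2, PAX5 and PAX8 subgroup was detected.

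Among the relatives of SIX2, SIX5, at 14.82 and 14.13 TPM, overlapped with it, and SIX4, at 9.68 and 13.77, was lower in both libraries with bounds apart in 1. All 4 EYA genes were detected, with EYA4 at 21.32 and 34.13 TPM and EYA3 at 25.01 and 29.20 both above EYA1, and EYA2, at 8.91 and 8.38, below it, although the bounds of EYA2 and EYA1 were apart in only 1 library. EYA1 held 18.4% and 18.2% of the TPM of its family.

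SALL2 was at 55.69 and 48.33 TPM, above SALL1, whereas SALL4, a stem cell factor, was at 6.40 and 7.83 and SALL3 at 3.71 and 3.88. By TPM the GATA family was the exception. GATA3 led it in both libraries with 29.9% and 28.3% of its TPM, followed by GATA2 at 37.34 and 36.97 TPM, GATA4 at 31.86 and 32.80 and GATA6 at 31.98 and 30.37. The bounds of GATA3 and GATA2 overlapped in both libraries, so the lead of GATA3 over GATA2 was within the uncertainty of the levels. The lead also depended on the length used. GATA3 had fewer expected counts than GATA2, GATA4 and GATA6 in both libraries. Per kilobase of the longest transcript, the mean CPM was 18.3 for GATA2, 15.0 for GATA6, 12.9 for GATA4 and 11.7 for GATA3. GATA1, the erythroid member, had 0 and 1 expected counts.

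**Figure D3:**
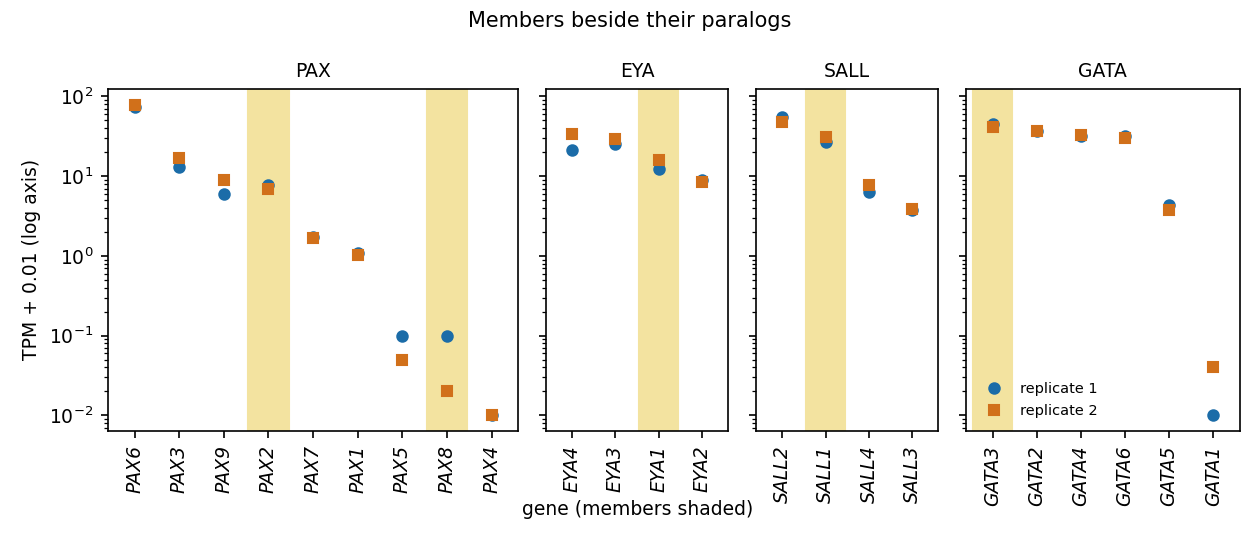
TPM + 0.01 on a log axis for each gene of the families of PAX2, EYA1, SALL1 and GATA3, with a point for each library and the kidney development factors shaded. PAX6 and SALL2 lead their families in both libraries, EYA4 and EYA3 lie above EYA1 and change order between the libraries, GATA3 leads the GATA genes, and PAX8 lies near the floor beside PAX5 and PAX4.

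Other transcription factors of the developing nephron were detected in 27 of 39 matched cases. HEY1, a Notch target, was the highest at 157 ± 18.3 TPM, followed by FOXC1, of the mesenchyme, at 86.1 ± 0.01 (SD, n = 2). The HOX11 genes, which act with EYA1 and PAX2 in the metanephros, were all detected. HOXD11 was at 38.00 and 37.28 TPM, HOXA11 at 17.84 and 16.74 and HOXC11 at 16.84 and 16.38. OSR1, which marks the earliest intermediate mesoderm, was at 0.26 and 0.42 TPM and not detected. HNF4A, a proximal tubule factor, TFAP2B, MEOX2, SOX11 and FOXI1 had 0 expected counts in both libraries.

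Proteins that act with the kidney development factors were detected in 26 of 28 matched cases, or 92.9%, against 63.8% of all protein-coding genes. The 3 highest were RBBP7 at 368 ± 1.68 TPM, HDAC2 at 344 ± 68.2 and MTA1 at 305 ± 15.0 (SD, n = 2), all NuRD subunits. PAXIP1, the PTIP adaptor that links PAX2 to histone methylation, was at 41.73 and 48.65 TPM. DACH2 was at 0.71 and 1.07 TPM, and LDB2 had 0 expected counts in both libraries.

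Ligands of kidney induction had a lower median level than receptors and transducers. Of 24 ligands and antagonists, 12 were detected, with a median of 1.16 TPM. SLIT2, which restricts the site of budding, led them at 107 ± 12.7 TPM, followed by BMP7, needed for progenitor survival, at 41.2 ± 6.56 and BMP4 at 8.89 ± 1.16 (SD, n = 2). Of 32 receptors and transducers, 31 were detected, with a median of 10.2 TPM, led by FGFR1 at 86.0 ± 3.37 and CTNNB1 at 83.1 ± 3.44, with LEF1 at 50.90 and 54.58. GDNF, the bud-inducing ligand that the progenitors make, was below the threshold at 0.64 and 0.69 TPM, while its receptors RET, at 2.24 and 2.29 TPM, and GFRA1, at 3.30 and 3.14, were above it.

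Of 21 genes described as direct targets of these factors, 13 were detected, or 61.9%, near the 63.8% of all protein-coding genes. MYC was at 270 ± 10.2 TPM, EZR at 106 ± 5.14 and IGF1R at 57.0 ± 0.24 (SD, n = 2), all of which are widely expressed. PODXL, a podocyte surface gene bound by WT1, was at 37.23 and 38.15 TPM and SPRY1 at 16.14 and 21.77. WNT4, a target in the progenitors, was at 0.27 and 0.10 TPM, and the podocyte target NPHS1 had 3 and 2 expected counts. TG, a thyroid target of PAX8, had 0 and 2 expected counts.

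Genes of the differentiated nephron were also looked up. They mark the mature kidney, so they do not test the embryonic origin of the line. Of 25 such markers, 7 were detected, a share of 28.0%, against 63.8% of all protein-coding genes. Their summed level was 64.77 TPM in replicate 1 and 65.60 in replicate 2, of which PODXL made up 37.23 and 38.15. CDH1 was at 6.65 and 6.75 TPM, LRP2, an uptake receptor of the proximal tubule, at 5.09 and 6.00, and SLC5A2 at 2.24 and 1.54. UMOD, AQP2, SLC22A6, SLC22A8 and CDH16 define the thick ascending limb, the collecting duct and tubule epithelium. They were among the 6 mature nephron markers with 0 expected counts in both libraries.

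Markers of other cell types were detected in 5 of 21 matched cases and summed to 90.28 and 100.46 TPM. NEFM, a neurofilament gene, was at 50.8 ± 8.03 TPM, COL1A1 at 22.5 ± 2.22 and ENO2 at 16.4 ± 1.58 (SD, n = 2). The defining adrenal genes TH and CYP11A1 and the leukocyte gene PTPRC were at 0 expected counts in both libraries.

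**Figure D4:**
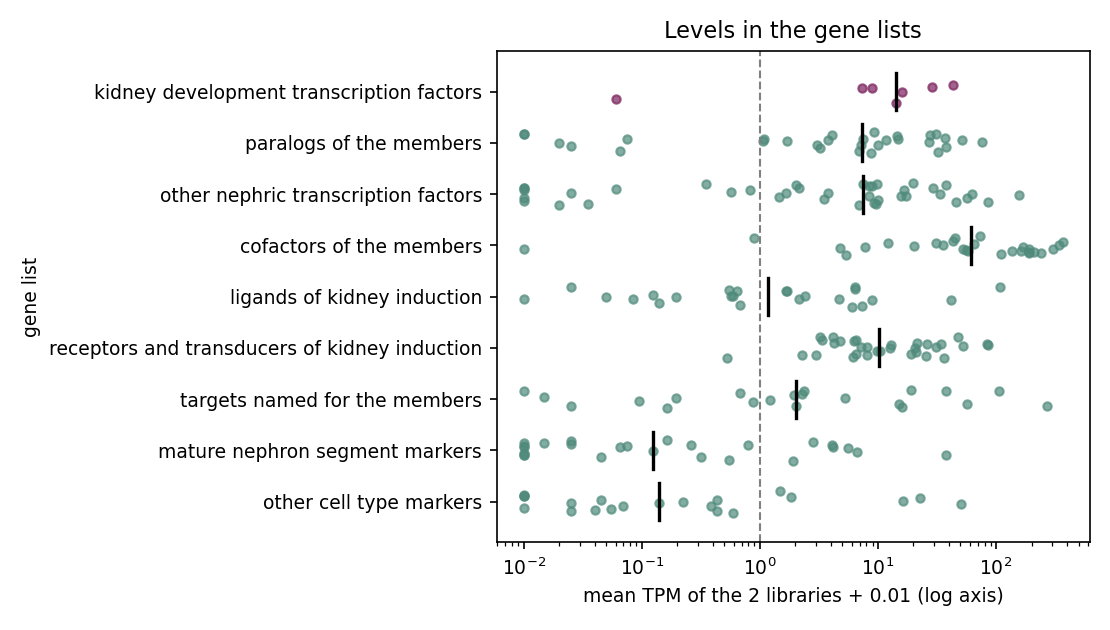
Mean TPM + 0.01 of the 2 libraries on a log axis for each matched gene of each list, with the median of the list as a black bar and a TPM of 1 as a dashed line. The median is 14.2 TPM for the kidney development factors and 0.12 TPM for mature nephron segment markers.

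How far the libraries differed was asked for each gene by an exact two-sided binomial test on counts, scaled by TMM factors and adjusted by Benjamini-Hochberg. It ran over the 19714 genes whose counts summed to 10 or more. This compares 2 libraries and not conditions, and its p-values cover counting error only. Over all genes 42.5% passed the threshold of 0.05, and of the 6 kidney development factors with enough counts, 2 did, SIX2 and EYA1, or 33.3%. Over all genes 20.6% were higher in replicate 2, as EYA1 was, and 21.9% were higher in replicate 1, as SIX2 was. PAX8 had too few counts to enter.

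SIX2 was lower in replicate 2, with a log2 ratio of -0.43 (adjusted p = 5.05e-07, exact binomial test), or 0.745-fold. EYA1 was higher in replicate 2, with a log2 ratio of 0.21 (adjusted p = 0.0294, exact binomial test). Under an assumed coefficient of variation of 0.1 between replicates, the edgeR exact test gave adjusted p of 0.32 for SIX2 and 0.71 for EYA1, and called 0 of the 6 genes. The common coefficient that edgeR estimated from the 2 libraries taken as 1 group was 0.200, above the assumed value. By the counts alone, SIX2 and EYA1 differed between the libraries in opposite directions. The log2 ratios of GATA3, SALL1, WT1 and PAX2 were -0.11, 0.03, -0.21 and -0.16, with adjusted p of 0.205, 0.681, 0.154 and 0.213 by the same exact test.

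The ratio between the libraries fell with the GC content of the transcripts over all genes, from a median log2 ratio of 0.92 in the most AT-rich of 50 GC classes to -0.30 in the most GC-rich. EYA1, at 43.1% GC, was the most AT-rich of them, and SIX2, at 61.5%, and PAX2, at 62.7%, the most GC-rich. With the GC trend of all genes removed, the log2 ratio of SIX2 was -0.17 (adjusted p = 0.101, exact binomial test) and that of EYA1 0.06 (adjusted p = 0.728), so both lost their calls. SALL1, at 51.3% GC, was called instead, with a log2 ratio of 0.16 (adjusted p = 0.00357, exact binomial test). The ratios of GATA3 and PAX2 changed sign, to 0.11 for each, with no call. After this removal 26.4% of all genes were called, and 1 of these 6 genes.

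**Figure D5:**
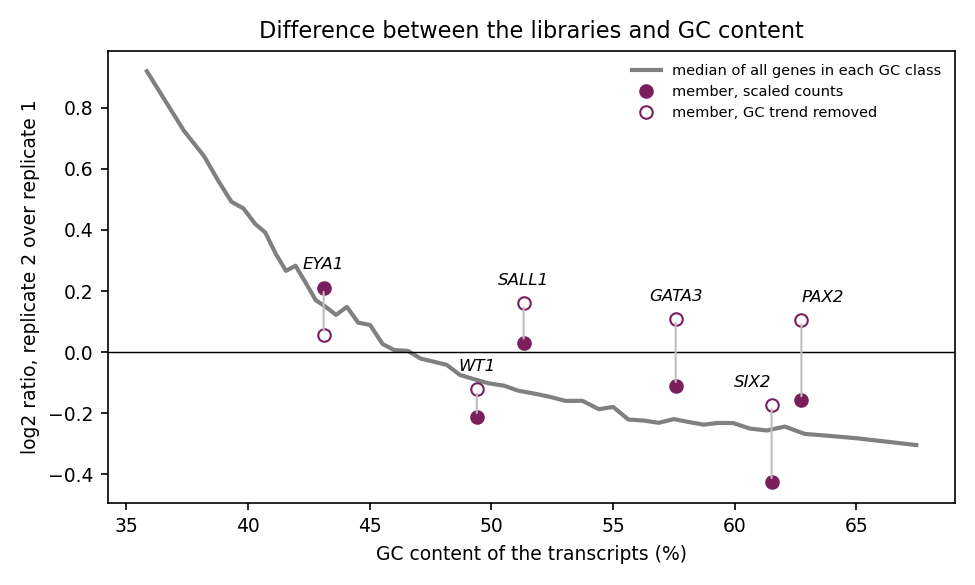
Log2 ratio of replicate 2 over replicate 1 against the GC content of the transcripts in percent: the grey line is the median of genes whose counts sum to 100 or more, in 50 GC classes, filled points are the 6 detected factors on scaled counts and open points the same genes with the trend removed. EYA1 and SIX2 lie furthest from 0 on either side before removal, at 0.21 and -0.43, and move to 0.06 and -0.17.

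For the lists below, the shares over all genes tested were 42.5% passing and 26.4% with the GC trend removed. Of 24 paralogs tested, with a median log2 ratio of 0.05 against -0.001 over all genes tested, 9 passed, or 37.5%. With the GC trend removed, 6 of the 24 paralogs passed. SIX4 had the largest ratio among them, 0.53, or 0.51 with the trend removed, where SIX2 went the other way. Of 30 other nephric factors tested 9 passed, or 30.0%, 3 of them higher in replicate 2, and 3 passed with the trend removed. HNF4G, at 38.2% GC, had the largest log2 ratio, 0.97, or 0.33 with the trend removed, where it was not called. The TPM of HNF4G was nonetheless 2.14 and 2.09, since its weighted length was 1176 bases in replicate 1 and 2514 in replicate 2. Of 32 receptors and transducers 19 passed, or 59.4%, 12 of them higher in replicate 2, and 8 of 32 passed with the trend removed. IL6ST, at 36.6% GC, had the largest log2 ratio of these, 1.44, or 0.61 with the trend removed. Of 27 cofactors tested 15 passed, or 55.6%, 13 of them lower in replicate 2, and 11 with the trend removed. HDAC2, at 39.5% GC, went the other way at 0.34, and stood at -0.15 once the trend was removed.

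Of 20 ligands tested 4 passed, or 20.0% against 42.5% over all genes, and 4 with the trend removed, against a share of 26.4%. FGF2, at 38.0% GC, had the largest log2 ratio among the ligands, 0.82, or 0.16 with the trend removed, where it was not called. Of 16 targets 3 passed, and 5 with the trend removed. Of 11 mature nephron markers 1 passed, SLC5A2 at -0.71, and 0 passed with the trend removed, where SLC5A2 was at -0.45. Of 11 other cell type markers 2 passed, NEFM at 0.27 and COL1A1 at -0.15. With the trend removed 2 also passed, NEFM at 0.43 and ENO2 at 0.28, while COL1A1 lost its call.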

How the data were processed

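RNA-Seq tables of 2 HEK293T libraries were used. The authors' processing notes in the labels list Trimmomatic 0.36, STAR 2.6.1c, RSEM 1.3.1 and hg19, while the study's methods name featureCounts in place of RSEM. The deposited tables carry RSEM's columns. Expected counts deposited by the authors share multi-mapped reads among genes. TPM and FPKM deposited by the authors are scaled by effective length. The level of the credibility bounds was not stated. A deposited pooled table was compared with the libraries.

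Names, positions, transcripts and GC content came from GENCODE 44 on GRCh37, which matched 96.1% of identifiers. Counts were rounded. The exact binomial test doubled the smaller tail, with library shares from edgeR 4.0.16 TMM factors, and was tested on simulated data. The GC trend was the median log2 ratio (pseudocount 0.5) in 50 classes. The similar stretches came from the longest coding transcript of each gene.

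The genes and lists were chosen with earlier results of these data known. All matched factors were described; of other lists, the 3 highest genes, the largest ratio among genes whose counts summed to 100 or more, and overlapping genes were named. Other genes were named after their values were seen, and some genes that the rule covers are not reported here. No likeness of pattern was computed, since 2 libraries of 1 condition hold none. Alternatives covered units, thresholds, scaling, DESeq2 1.42.0 size factors, pseudocounts, an edgeR exact test and each replicate left out.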

Additional observations from a re-analysis of the deposited data

How the results depend on the processing

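The level per kilobase of the longest transcript was the alternative chosen after seeing the data. No paired analysis was possible because both libraries belong to 1 group, and with 1 replicate left out there is no ratio between the libraries. Leaving out either replicate gave 6 detected factors and moved their levels to the other library's value, from 6.86 to 7.83 TPM for PAX2, 0.01 to 0.09 for PAX8, 14.18 to 17.56 for SIX2, 8.73 to 9.03 for WT1, 26.77 to 30.85 for SALL1, 12.44 to 15.94 for EYA1 and 41.09 to 44.93 for GATA3. The posterior mean TPM raised PAX8 to 0.74, and the pooled table gave 8.50 TPM for WT1. Of the 6 pairs of neighbours in the TPM order, 4 kept their direction in CPM and 4 per kilobase of the longest transcript. At a TPM of at least 0.1, the detected ligands rose to 18, mature nephron markers to 12 and other cell type markers to 11. At a TPM of at least 5 these were 7, 3 and 3, and targets were 8. By the edgeR exact test with an assumed coefficient of variation of 0.1, 0 of the 6 factors were called, against 1427 of 19714 genes, of which 1319 were higher in replicate 2. With the GC trend removed, 1 was called, SALL1, against 5025 of 19048 genes, and the log2 ratios of PAX2 and GATA3 reversed to 0.11 and 0.11. Library totals, DESeq2 size factors, other count minimums and posterior mean counts each left 2 factors called. WT1, the least counted of the detected factors, carried the largest counting error among them.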
